A study of Mus musculus with 14 samples.

Results

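The mitosis and G2/M genes are 50 genes whose products carry a cell through the late cell cycle, such as cyclins, mitotic kinases, kinetochore proteins, mitotic kinesins and condensin subunits. They were chosen by name. On the mouse Affymetrix arrays of this series 49 of the 50 had a probe set listed with that gene alone, and Ccnb1 had none. All 49 passed the filter on low signal, among 13118 genes that passed. Where a gene had several probe sets, which was so for 35 members, the one with the highest mean signal over the 14 arrays was read. On 10 of the 49 the probe set used carries a suffix for probes that can match other transcripts (Plk4, Aurkb, Bub3, Cdc20, Kif22, Kif2c, Prc1, Incenp, Cdca8 and Pttg1), so their signals may hold more than 1 transcript.

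Transcripts of these genes are low in resting and G1 cells, rise through S phase and peak in G2 and mitosis. In that cycle the MuvB complex with B-Myb and FoxM1 activates them. The DREAM complex represses them in resting cells through a promoter element, the cell cycle genes homology region (CHR). Another promoter element counted below, the CCAAT box, is not the site of that repression. Helper T cells divide rapidly after antigen receptor stimulation and stop when the stimulus and growth cytokines are gone, so in a culture of T cells these transcripts are commonly read as a mark of the share of cells in division.

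The cells were mouse T cells cultured for 2 weeks under conditions that polarise them to Th1, the helper subset that makes interferon gamma, or to Th2, the subset that makes interleukin 4. Trpm4 was inhibited to see what changes in gene expression. It is a channel that calcium opens from inside the cell and that lets sodium and potassium through. There were 14 conditions with 1 array each: in both cell types Trpm4 siRNA, Thy1 siRNA (the siRNA control, against a T cell surface protein), infection with a dominant negative (DN) Trpm4 retrovirus or with empty vector, each at 12 h and at 4 h, and no treatment. The labels give no strain, sex or age, and they do not say from which event the 12 h and 4 h are counted or whether infected cells were sorted. Arrays of equal treatment and time form 7 Th1 and Th2 pairs, and these pairs stand in for replicates. Nothing says that the arrays came from separate cultures, so the p-values measure only the spread between these pairs. Precision is limited by how few arrays there are.

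The deposited signals summed to between 7324678 and 10608719 per array, with medians of 19.9 to 28.3. Signals given here are linear and quantile normalised over the 14 arrays. Differences are on the scale of log2(signal + 16), which understates changes of dim transcripts. Interferon gamma (Ifng) had 9606 to 10885 in treated Th1 arrays and 697 to 1649 in treated Th2 arrays, and Il4 had 3 to 26 in treated Th1 arrays and 2256 to 7217 in treated Th2 arrays. Tbx21, the Th1 transcription factor, was 741 in untreated Th1 and 75.3 in untreated Th2 cells, but 409 to 2043 in treated Th1 and 682 to 1364 in treated Th2 arrays, which overlap. The T cell marker Cd3e was at 612 or more on every array. Cd4 was 208 and the CD8 T cell marker Cd8a 359 in untreated Th1 cells, against 710 and 102 in untreated Th2 cells. In siRNA arrays Cd4 was 163 to 172 and Cd8a 137 to 150 in Th1, and 257 to 282 and 70 to 91 in Th2. With retrovirus they were 138 to 302 and 13 to 26 in Th1, and 91 to 135 and 11 to 20 in Th2. The natural killer cell marker Ncr1 was 135 in untreated Th1 cells and at most 20 elsewhere. Of 18 markers of B cells, macrophages, dendritic, CD8 T, natural killer, erythroid cells and fibroblasts, 14 had a probe set (the erythroid ones not), none was at 0, and their summed signal was 279 to 907 per array, lowest with retrovirus and highest untreated. Deposited Trpm4 signal was 58.4 with Trpm4 siRNA against 100.3 with Thy1 siRNA in Th1 cells, and 84.5 against 133 in Th2 cells. With the DN virus it was 516 and 119 against 75.3 and 70.5 with vector in Th1 cells (12 h, then 4 h), and 129 and 128 against 135 and 117 in Th2 cells.

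The arrays also differ in RNA quality as the control probe sets read it. On 6 arrays the 3′ control probe set exceeded its 5′ partner, namely on the Th1 arrays of 4 h and all infected Th2 arrays. The excess was 5.22 to 5.72 for Gapdh and 3.93 to 4.78 for Actb on the log2 scale. On the other 8 arrays these values were −0.25 to 0.04 and 0.05 to 0.47. The 6 arrays are called 3′ biased below, and the bias goes with time in Th1 cells and with cell type at 12 h.

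The promoters show what the members share beyond their names. RefSeq promoters on GRCm38.p6, from 250 bases before to 50 bases after the start, were found for 41 of the 50 members, Ccnb1 among them. The core of the CHR, TTTGAA, searched on both strands (TTCAAA), was in the promoters of 31 of the 41 genes (75.6%), against 20.2% of all 27025 genes with a promoter. The CCAAT box, searched as CCAAT or ATTGG, was in 32 (78%) against 41.1% of all genes. Both were present in 28 (68.3%) against 7.97%, and at least 2 CCAAT boxes in 22 (53.7%) against 13.3%. Of 43 TTTGAA matches in members 31 (72.1%) lay in the last 100 bases of the window, which hold the start site, against 25.3% of matches in all promoters. For comparison, TTTGAA was in 29 of 60 other mitosis genes (48.3%) and in 3 of 28 genes of DNA replication and S phase (10.7%). CCAAT was in 61.7% and 60.7% of these lists, at least 2 CCAAT boxes in 38.3% and 35.7%, and both elements in 31.7% and 7.14%. Of TTTGAA matches in other mitosis genes 77.8% lay in the last 100 bases. The elements are therefore not particular to the members. A match is a run of letters and no evidence of binding.

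The promoters of 6 members are printed to show these elements in genes that the results below turn on. On the probe set used, Cdca3, Kif23, Ccnb2 and Cdc20 were called in both sets of arrays described below, while Bub3 and Pttg1 were called in neither. Capitals mark TTTGAA or TTCAAA and CCAAT or ATTGG, and each run is read 5′ to 3′ on the strand of the gene. They lie at chr6:124829926-124830225 (Cdca3, plus strand), chr9:61946750-61947049 (Kif23, minus), chr9:70421505-70421804 (Ccnb2, minus), chr4:118437294-118437593 (Cdc20, minus), chr7:131560120-131560419 (Bub3, plus) and chr11:43425932-43426231 (Pttg1, minus).
Cdca3: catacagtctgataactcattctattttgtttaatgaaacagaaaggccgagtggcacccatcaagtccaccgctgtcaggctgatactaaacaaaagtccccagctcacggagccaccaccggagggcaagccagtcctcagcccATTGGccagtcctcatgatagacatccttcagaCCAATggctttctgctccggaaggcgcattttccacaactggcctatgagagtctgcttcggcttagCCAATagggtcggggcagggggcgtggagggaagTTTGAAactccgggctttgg
Kif23: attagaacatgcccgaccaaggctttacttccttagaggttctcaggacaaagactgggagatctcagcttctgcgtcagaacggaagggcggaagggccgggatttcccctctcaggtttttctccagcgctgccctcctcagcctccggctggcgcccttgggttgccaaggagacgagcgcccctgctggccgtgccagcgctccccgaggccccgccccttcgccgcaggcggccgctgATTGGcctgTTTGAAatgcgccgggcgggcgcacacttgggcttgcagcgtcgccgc
Ccnb2: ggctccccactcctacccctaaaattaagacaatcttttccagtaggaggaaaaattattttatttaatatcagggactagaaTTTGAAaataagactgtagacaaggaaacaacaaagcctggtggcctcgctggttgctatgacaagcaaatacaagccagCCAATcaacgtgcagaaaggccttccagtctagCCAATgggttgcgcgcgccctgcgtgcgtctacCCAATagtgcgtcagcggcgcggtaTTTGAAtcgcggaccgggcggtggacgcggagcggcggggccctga
Cdc20: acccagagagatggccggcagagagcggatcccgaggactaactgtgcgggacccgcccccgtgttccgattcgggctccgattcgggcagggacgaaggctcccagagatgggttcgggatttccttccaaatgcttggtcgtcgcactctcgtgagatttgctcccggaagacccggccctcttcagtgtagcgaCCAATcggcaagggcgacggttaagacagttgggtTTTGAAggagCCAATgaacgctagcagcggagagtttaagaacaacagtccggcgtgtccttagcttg
Bub3: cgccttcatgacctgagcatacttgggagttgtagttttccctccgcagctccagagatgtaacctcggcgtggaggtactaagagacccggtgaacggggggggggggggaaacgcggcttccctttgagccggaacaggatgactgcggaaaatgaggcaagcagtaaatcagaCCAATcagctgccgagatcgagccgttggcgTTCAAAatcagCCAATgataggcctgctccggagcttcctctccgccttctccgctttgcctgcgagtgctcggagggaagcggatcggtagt
Pttg1: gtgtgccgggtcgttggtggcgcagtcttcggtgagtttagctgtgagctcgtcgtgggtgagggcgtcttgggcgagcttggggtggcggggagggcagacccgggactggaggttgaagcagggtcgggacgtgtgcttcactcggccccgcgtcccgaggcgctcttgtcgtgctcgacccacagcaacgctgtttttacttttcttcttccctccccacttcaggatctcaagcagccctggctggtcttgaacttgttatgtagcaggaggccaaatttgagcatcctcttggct
In Cdca3 a row of 3 CCAAT boxes precedes the single TTTGAA. Ccnb2 has 3 CCAAT boxes and a TTTGAA 4 bases past the start, with another TTTGAA 167 bases before it. In Cdc20 the TTTGAA lies between its 2 CCAAT boxes, 18 bases before the start. Bub3 also holds TTCAAA between 2 CCAAT boxes, so the elements alone do not sort the members by their calls. Though not called, Bub3 had both Th1 siRNA arrays above both Th2 siRNA arrays. All its Th1 retrovirus arrays lay below all its Th2 retrovirus arrays. Pttg1 has no match to either motif in this window.

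Mitosis transcripts separated Th1 from Th2 cells, and the direction depended on the set of arrays. In the siRNA arrays 28 of 49 members were higher in Th1 than in Th2 cells and 0 were lower (of all 29467 probe sets 3.52% were called higher, 3.49% lower and 7.01% either way). In the retrovirus arrays 43 members were lower in Th1 and 0 were higher (10.3% of all were called lower and 7.01% higher). The median difference of Th1 minus Th2 was 1.16 with siRNA and −1.58 with retrovirus. The medians over all probe sets were 0 and 0.01. The difference between the sets was itself called for 42 members, all higher with siRNA, against 3.3% of all probe sets (2.28% were lower and 5.58% either way), with a median of 2.88. In the 1 untreated pair the median was −0.53, against −0.06 over all probe sets. In that pair 46 of 49 members were lower in Th1, against 54.5% of all probe sets. This single pair had the direction of the retrovirus arrays and a smaller size.

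These calls come from limma fits over all probe sets with the array pair as a block and a Benjamini-Hochberg adjusted p under 0.05. The split by set was made after seeing the data. The siRNA and retrovirus differences came from a joint fit over 6 pairs with a shared estimate of the spread. An siRNA standard error therefore also holds the spread of the retrovirus pairs. Over all 7 pairs together, where the sets oppose each other, 0 members were called (9.79% of all probe sets were, 3.65% higher and 6.14% lower). The median was −0.65. An unadjusted p under 0.05 was reached by 7 members and by 8037 of all 29467 probe sets. The siRNA calls rest on 2 pairs. Without the Thy1 siRNA pair 0 members passed in the siRNA arrays (28 at an unadjusted p under 0.05), against 0.282% of all probe sets. Without the Trpm4 siRNA pair 1 passed (35 at an unadjusted p under 0.05), against 0.292% of all. In both fits 48 of 49 members were above 0, with medians of 1.11 and 1.24. The difference between sets was then called for 0 members either way, with 45 and 47 at an unadjusted p under 0.05, and for 0 of all probe sets. At 12 h the Th2 retrovirus arrays were 3′ biased and the Th1 arrays were not. The siRNA and untreated arrays were not biased in either cell type. The siRNA and retrovirus sets thus also differ in bias, and its part in the difference between them was not tested. The 4 h pairs, biased on both sides, gave 46 members called lower, against 14.2% of all probe sets, and a median of −1.70 when fitted without the 12 h pairs.

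**Figure D1:**
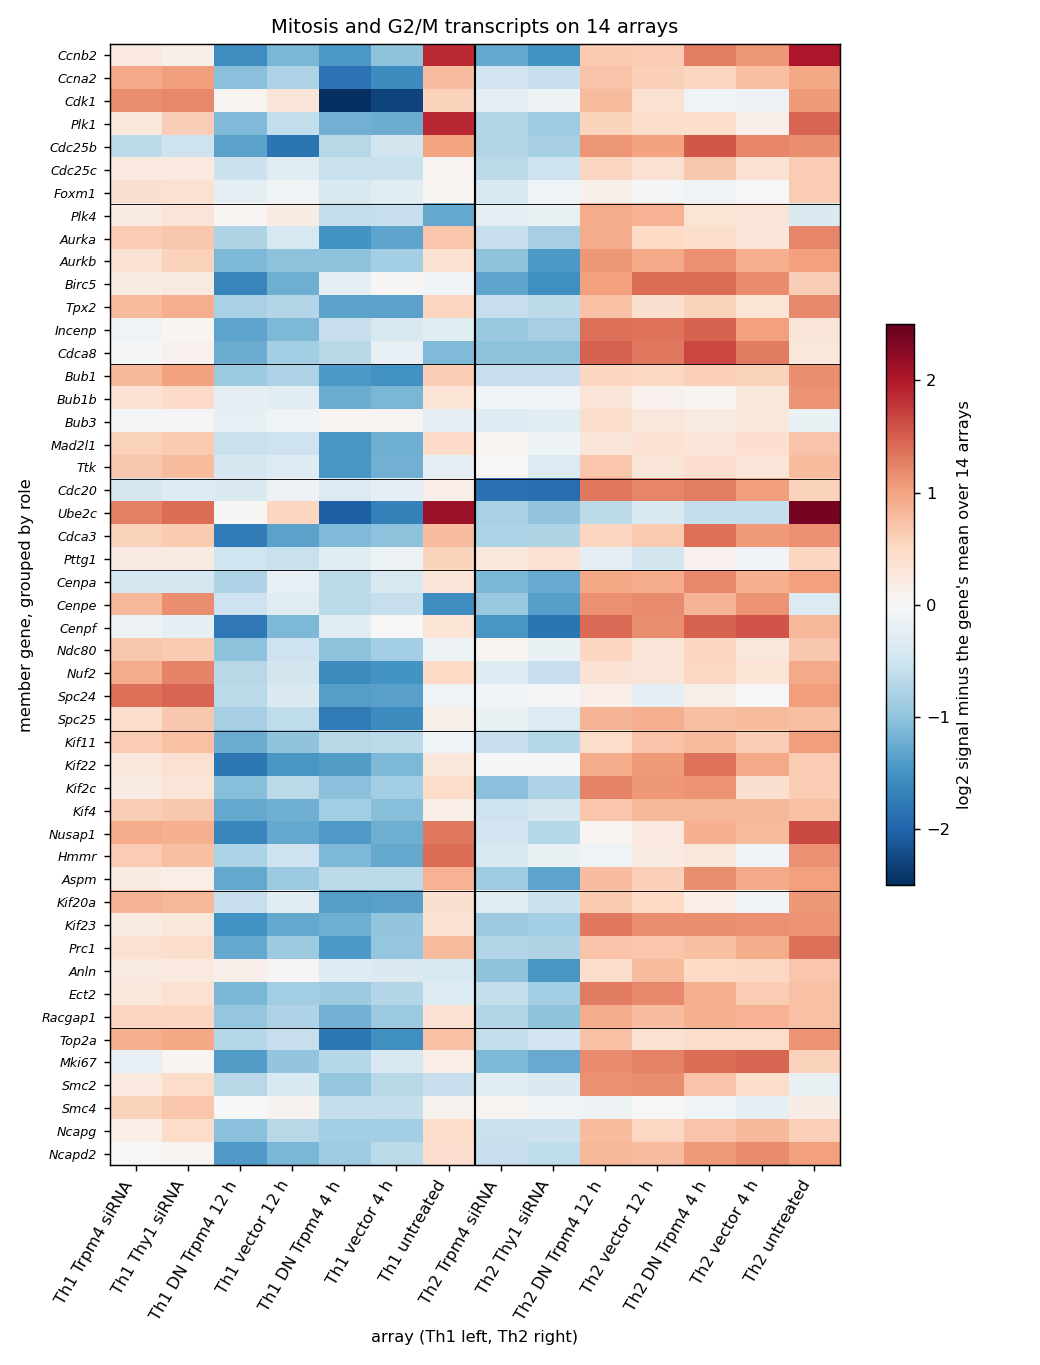
Signal of the 49 members (rows, grouped by role) on the 14 arrays (columns, Th1 left and Th2 right), as log2(signal + 16) minus the mean of the gene over all arrays, with red above and blue below that mean. Th1 columns are mostly red with siRNA and blue with retrovirus, and Th2 columns the reverse, with list medians of Th1 minus Th2 of 1.16 and −1.58.

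The separation was also seen array by array. In the siRNA set 48 of 49 members had both Th1 arrays above both Th2 arrays, an ordering that 33.5% of all probe sets showed. In the retrovirus set 44 members had all 4 Th1 arrays below all 4 Th2 arrays, against 11% of all probe sets, and 0 members had all Th1 above all Th2 arrays, against 8.95%. Both held for 44 members and for 2.84% of all. The 28 members called higher with siRNA were all among those called lower with retrovirus, against 0.533% of probe sets called both ways. Since these are bulk RNA samples, fewer dividing cells and less RNA of these genes per cell cannot be told apart.

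**Figure D2:**
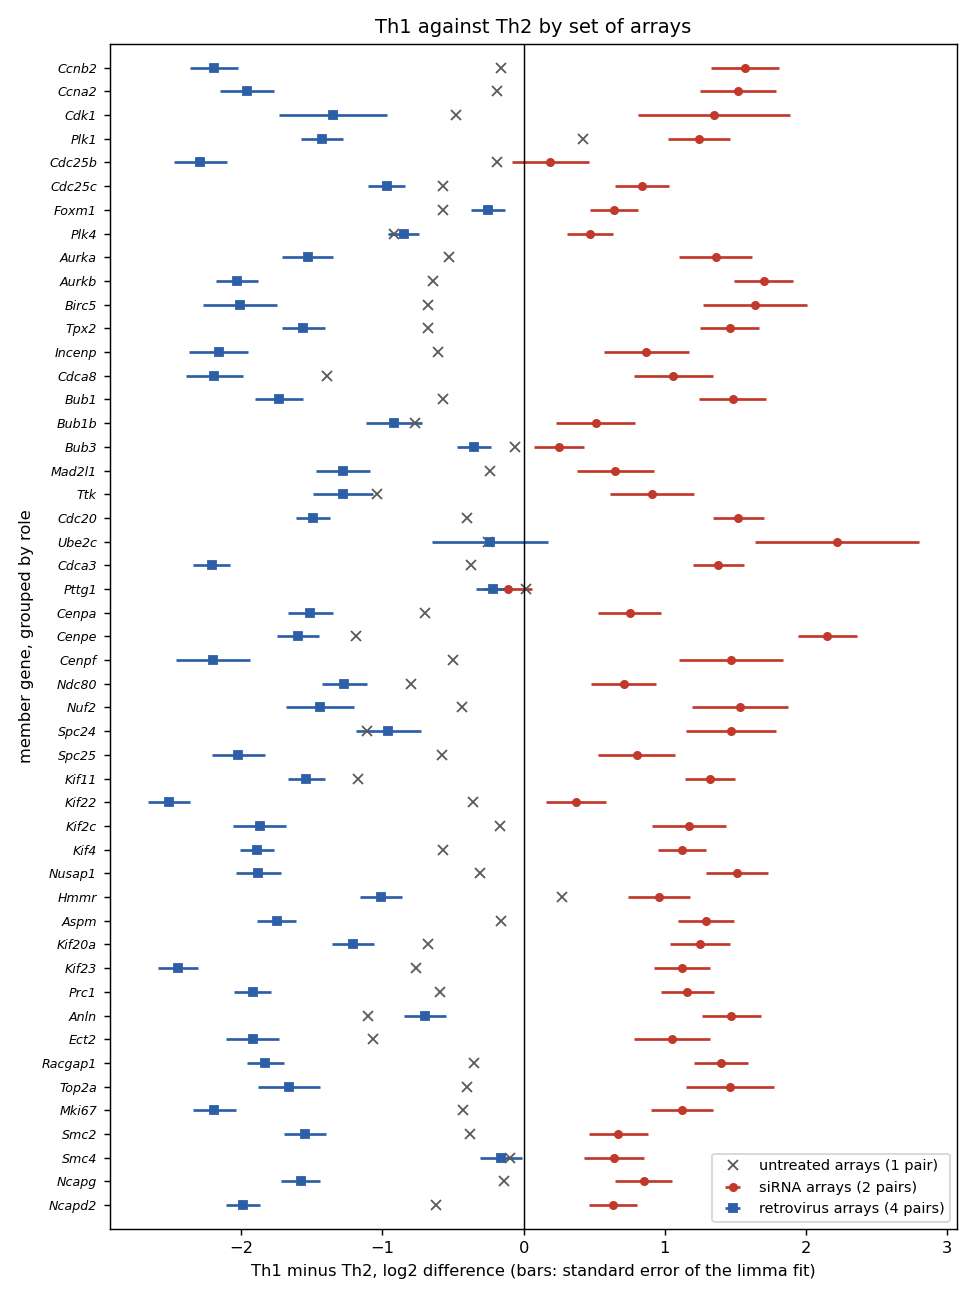
Th1 minus Th2 difference of each member on the log2 scale, with bars of 1 standard error of the limma fit, for siRNA arrays (red circles, 2 pairs), retrovirus arrays (blue squares, 4 pairs) and the untreated pair (crosses). Red points lie right of 0 for 48 of 49 members and blue points left of 0 for all 49, while Pttg1 and Bub3 lie close to 0 in both sets.

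The size and the call of single genes depended on the probe set. Besides the brightest probe sets used here, 33 members had 62 others that passed the filter. With siRNA 56 of the 62 were above 0, 21 were called higher, 0 lower and 41 were not called. With retrovirus 53 were below 0, 33 were called lower, 0 higher and 29 were not called. Of the 33 members 29 were called lower with retrovirus on the probe set used; all other probe sets shared the call for 16 of them, at least 1 did not for 13, and none shared it for Kif23, Kif2c, Spc25 and Cdca3. With siRNA 18 of the 33 were called; all others shared the call for 4, and none did for Bub1, Kif23, Kif2c, Top2a, Tpx2, Prc1, Cdca3, Anln, Racgap1 and Cdc25c. Conversely 6 members not called with siRNA on the probe set used were called on another. No probe set of a called member was called in the opposite direction in either set. By the choice of the brightest, the others have lower mean signals. Values of other probe sets are given below for some of the genes described in detail. Where they are not given, other probe sets may still differ in size or call. For instance, with siRNA 1 other Cdc20 probe set gave 1.33 ± 0.22, called, and another 0.13 ± 0.19, not called. With retrovirus 1 other Plk4 probe set gave −0.54 ± 0.15, called, and another 0.46 ± 0.34, not called.

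Entry into mitosis is driven by Cdk1 with the cyclins Ccna2 and Ccnb2, by the kinase Plk1 and by the phosphatases Cdc25b and Cdc25c, which remove inhibitory phosphates from Cdk1. Values below are given in the order Trpm4 siRNA and Thy1 siRNA, and for the virus in the order DN Trpm4 12 h, vector 12 h, DN Trpm4 4 h and vector 4 h. Ccnb2 had 298 and 275 in Th1 siRNA arrays, against 94.1 and 78.2 in Th2 siRNA arrays. It had 75.3, 105, 82.6 and 116 in Th1 retrovirus arrays, against 399, 394, 630.4 and 543 in Th2 retrovirus arrays. The groups did not overlap in either set, and the difference was 1.57 ± 0.24 with siRNA (adjusted p = 0.0113, limma, 2 pairs) and −2.19 ± 0.17 with retrovirus (adjusted p = 0.000374, 4 pairs). Untreated cells had the highest Ccnb2 of all, 953 in Th1 and 1066 in Th2. Ccna2 followed the same pattern, with 1.52 ± 0.27 in the siRNA set and −1.96 ± 0.19 in the retrovirus set, as did Plk1 with 1.24 ± 0.22 and −1.43 ± 0.15. Cdc25c, at 8.2 to 45.5 over all arrays, was also called both ways.

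Cdk1, the kinase itself, was less uniform. Its signal was 1269 and 1305 in Th1 and 479 and 513 in Th2 siRNA arrays. With retrovirus it was 582, 705, 80.9 and 101 in Th1, against 983, 732, 517 and 503 in Th2. The Th1 virus arrays at 12 h lay within the Th2 range and those at 4 h far below it. Neither the siRNA difference (1.35 ± 0.54, adjusted p = 0.208) nor the retrovirus difference (−1.35 ± 0.38, adjusted p = 0.0531) passed in limma. The siRNA pairs gave 1.38 with Trpm4 siRNA and 1.32 with Thy1 siRNA, so the wide siRNA error comes from the spread shared with the retrovirus pairs. Cdc25b was called with retrovirus alone, at −2.29 ± 0.19 against 0.19 ± 0.27 with siRNA, and the difference between the sets was 2.49 ± 0.33 (adjusted p = 0.00994, limma). Foxm1, the transcription factor that switches on many of these genes, gave 0.64 ± 0.17 with siRNA and −0.25 ± 0.12 with retrovirus on the probe set used, which did not pass. Of its 2 other probe sets 1 was called higher with siRNA, at 1.48 ± 0.25 (adjusted p = 0.0173, limma). The signal of the probe set used was 32.2 to 82.5 over all arrays.

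The Aurora kinases order the spindle and its attachments. Aurkb works in the chromosomal passenger complex with Incenp, Birc5 (survivin) and Cdca8 (borealin), and Aurka at the spindle poles with its activator Tpx2. Aurkb had 202 and 234 in Th1 and 67.4 and 46 in Th2 siRNA arrays. With retrovirus it had 60.5, 66.7, 67.5 and 77.5 in Th1, against 339, 309, 358 and 301 in Th2. The groups did not overlap in either set, and the differences were −2.03 ± 0.15 (adjusted p = 0.000323) with retrovirus and 1.70 ± 0.21 in the siRNA set (adjusted p = 0.00579, limma). Of the 7 members with Plk4, the kinase of centriole duplication, 4 were called higher with siRNA (Aurkb, Tpx2, Aurka and Birc5) and all 7 lower with retrovirus. The passenger subunits Incenp and Cdca8 differed with retrovirus, at −2.16 ± 0.21 and −2.19 ± 0.20, while 0.87 ± 0.30 and 1.06 ± 0.28 with siRNA did not pass. These come from probe sets that can match other transcripts. Other Incenp probe sets were called with siRNA at 1.36 ± 0.31 and 1.59 ± 0.28 and gave −0.49 ± 0.22 and 0.36 ± 0.20 with retrovirus, not called. The third other was called with retrovirus (−1.57 ± 0.22) and not with siRNA (0.46 ± 0.32). Both other Cdca8 probe sets were called with siRNA (1.87 ± 0.29 and 1.47 ± 0.24), with 0.09 ± 0.20, not called, and −2.18 ± 0.17, called, in the retrovirus set. Birc5 had 661 and 676 in Th1 and 222 and 187 in Th2 siRNA arrays, and 174, 239, 484 and 589.8 in Th1 against 1188, 1532, 1546 and 1329.5 in Th2 retrovirus arrays. Both differences of Birc5 passed, 1.64 ± 0.37 with siRNA and −2.01 ± 0.26 with retrovirus. Tpx2 had 247 and 268 in Th1 and 86.4 and 80.4 in Th2 siRNA arrays, and 71.7, 75.3, 44.5 and 44 in Th1 against 238, 185, 207 and 176 in Th2 retrovirus arrays. Plk4 gave 0.47 ± 0.16 with siRNA and −0.85 ± 0.11 with retrovirus.

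The spindle checkpoint holds anaphase until all kinetochores are attached. Bub1, its scaffold kinase, had 254 and 293 in Th1 and 87.5 and 87.1 in Th2 siRNA arrays. With retrovirus it had 64.3, 73.1, 40.5 and 37.5 in Th1, against 206, 204, 217 and 211 in Th2. On the probe sets used, Bub1 was the 1 checkpoint gene of 5 called in the siRNA set (1.48 ± 0.24, adjusted p = 0.0144, limma), while 4 of 5 were called lower in the retrovirus set. The kinase Ttk had 36.4, 40.7, 9.8 and 14.5 in Th1 virus arrays, against 97.8, 70.8, 78.3 and 72.1 in Th2. Mad2l1, which binds and restrains Cdc20, gave −1.28 ± 0.19 and Bub1b −0.92 ± 0.20 with retrovirus. The other Bub1 probe set was not called with siRNA, at 0.49 ± 0.40, and 1 of 2 other Bub1b probe sets was, at 0.98 ± 0.22. Bub3, the adaptor of Bub1 and Bub1b, was the exception: it had 1722 and 1706 in Th1 and 1413 and 1472 in Th2 siRNA arrays. With the virus it had 1541, 1643, 1824 and 1856 in Th1 and 2383, 2153, 2068 and 2149 in Th2. The groups did not overlap in either set, but its differences, 0.25 ± 0.18 and −0.35 ± 0.12, did not pass. Nor did those of its 4 other probe sets.

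Exit from mitosis runs through the anaphase-promoting complex (APC/C), a ubiquitin ligase that Cdc20 activates and that Ube2c supplies with ubiquitin. Cdc20 had 581 and 634 in Th1 and 204 and 199 in Th2 siRNA arrays. With retrovirus it had 613, 719.8, 619 and 659 in Th1, against 2002, 1854, 1945 and 1638 in Th2. The Th1 signals of the 2 sets overlapped, while the Th2 signals were several times higher with virus than with siRNA. Both differences passed in limma, 1.52 ± 0.18 (adjusted p = 0.00471) and −1.49 ± 0.12 (adjusted p = 0.000542). Cdca3, which promotes degradation of the Cdk1 inhibitor Wee1, had 454 and 474 in Th1 and 166 and 171 in Th2 siRNA arrays. Its virus arrays had 77.5, 108, 131 and 138 in Th1, against 440.0, 478, 802 and 635 in Th2. The retrovirus difference of Cdca3 was −2.21 ± 0.13 (adjusted p = 0.000118, limma), the lowest adjusted p among the probe sets used. Its 2 other probe sets, at a mean signal of 27.8 and 29.7 against 376 for the one used, gave 0.00 ± 0.13 and −0.09 ± 0.13 with retrovirus and 0.11 ± 0.18 and 0.17 ± 0.18 with siRNA, none called.

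Ube2c and Pttg1 did not follow. Ube2c had 585 and 644 in Th1 and 127 and 112 in Th2 siRNA arrays, the widest siRNA difference of the members, but 2.22 ± 0.58 did not pass (adjusted p = 0.0689, limma). With retrovirus it was 242, 349, 45.1 and 61.8 in Th1 and 144, 178, 152 and 151 in Th2, so Th1 lay above Th2 at 12 h and below it at 4 h. The difference was −0.24 ± 0.41 over the 4 pairs, and it was 0.05 without the vector pair and 0.17 without the DN pair of 4 h. The siRNA pairs of Ube2c gave 2.07 with Trpm4 siRNA and 2.36 with Thy1 siRNA. Their standard error also holds this spread of the retrovirus pairs. Pttg1, securin, which guards the cohesin protease until anaphase, had 1237 and 1242 in Th1 and 1298 and 1381 in Th2 siRNA arrays. On the probe sets used, it was the only member below 0 in both sets, at −0.11 ± 0.17 with siRNA and −0.22 ± 0.12 with retrovirus. Its probe set can match other transcripts. The other Pttg1 probe sets gave −0.10 ± 0.66 and −0.25 ± 0.50 with siRNA, and 1.06 ± 0.46 and −0.35 ± 0.36 with retrovirus, none called. APC/C subunits, which are not members, gave 0 calls of 13 with siRNA (2 at an unadjusted p under 0.05, limma). With retrovirus 1 was higher and 1 lower, 15.4% of them against 17.3% of all probe sets.

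Centromere and kinetochore genes included the strongest call of the siRNA set. Cenpe, a kinetochore kinesin, had 185 and 236 in Th1 and 42.9 and 27.6 in Th2 siRNA arrays. With the virus it had 62.6, 76.1, 54.7 and 59.9 in Th1, against 235, 242, 188 and 229 in Th2. Its differences of 2.15 ± 0.21 and −1.60 ± 0.15 were opposite in sign, and the siRNA one had the lowest adjusted p among the probe sets used (adjusted p = 0.00254, limma). Its other probe set was called in both sets too, at 1.05 ± 0.19 and −1.77 ± 0.13. Untreated Th1 cells had 23, below all treated Th1 arrays, and untreated Th2 cells 73, between the Th2 siRNA and retrovirus arrays. Of the 4 subunits of the Ndc80 complex, which holds microtubule ends, Spc24 and Nuf2 were called in both sets, and Ndc80 and Spc25 in the retrovirus set. Spc25 had 126, 147, 58.3 and 68.8 in Th1 and 435, 459.6, 405 and 417 in Th2 retrovirus arrays, a difference of −2.02 ± 0.19. The other, dimmer Spc25 probe set gave −0.27 ± 0.13 (adjusted p = 0.192, limma). Cenpa, the centromeric histone, had 147, 224, 158 and 194 in Th1 and 528, 514, 624 and 495 in Th2 retrovirus arrays. Cenpa and Cenpf were called with retrovirus, at −1.51 ± 0.16 and −2.20 ± 0.26, and not with siRNA, at 0.75 ± 0.22 and 1.47 ± 0.37. Of 2 other Cenpf probe sets 1 was called in both sets, at 1.16 ± 0.22 and −0.57 ± 0.16, and the other in neither.

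Among the spindle motors and microtubule proteins, on the probe sets used, 6 of 7 were called higher with siRNA and 7 of 7 lower with retrovirus. Kif22, a chromosome-bound kinesin, was the exception in the siRNA set, with 1176 and 1274 in Th1 and 952 and 940.3 in Th2. On this probe set, which can match other transcripts, it had the widest difference of the members in the retrovirus set, with 267, 346, 362 and 437 in Th1, against 1864, 2049, 2519.5 and 1882 in Th2. That difference was −2.51 ± 0.15 (adjusted p = 0.000137, limma), a 5.71-fold lower level in Th1 on this scale, beside 0.37 ± 0.21 with siRNA (adjusted p = 0.38). The 2 other Kif22 probe sets gave −1.22 ± 0.21 (adjusted p = 0.0101) and −0.62 ± 0.23 (adjusted p = 0.104, limma) with retrovirus, so the size fell and 1 did not pass. Kif11, the motor that separates the spindle poles, had 208 and 225 in Th1 and 81.3 and 72.6 in Th2 siRNA arrays, then 44.8, 56.6, 73.2 and 76.5 in Th1 and 182, 222, 233 and 207 in Th2 with virus. Kif4, a chromosome-bound motor that also shapes the midzone, had 23.8, 25.8, 37.9 and 30.3 in Th1 and 142, 155, 156 and 155 in Th2 retrovirus arrays. Nusap1, a microtubule-bundling protein, gave 1.51 ± 0.22 and −1.88 ± 0.16. Kif4, Kif2c, Aspm and Hmmr ranged over 0.96 to 1.29 with siRNA and −1.89 to −1.01 with retrovirus. The 3 other probe sets of Kif2c gave −0.38 to 0.40 with retrovirus, none called.

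Cytokinesis uses the midzone proteins. Kif23, which with Racgap1 forms centralspindlin, had 325 and 344 in Th1 and 142 and 148 in Th2 siRNA arrays. In the virus arrays it had 87.6, 106, 111 and 133 in Th1, against 722, 648, 644 and 636 in Th2. The groups did not overlap in either set, and the difference was −2.45 ± 0.14 (adjusted p = 0.000124) beside 1.12 ± 0.20 with siRNA (adjusted p = 0.0204, limma). The other Kif23 probe set, at a mean signal of 27.1 against 360.1, gave −0.09 ± 0.21 with retrovirus (adjusted p = 0.787) and 1.14 ± 0.30 with siRNA (adjusted p = 0.0722), neither called. Racgap1 had 304 and 304 in Th1 and 117 and 94.9 in Th2 siRNA arrays, and 97.1, 114, 79.9 and 99.7 in Th1 against 405, 360.4, 390.2 and 385 in Th2 retrovirus arrays. All 6 genes of this role were called lower with retrovirus and 5 higher with siRNA. Ect2, the exchange factor for RhoA, missed the siRNA threshold at 1.05 ± 0.27 (adjusted p = 0.0623, limma). Anln, which organises the contractile ring, gave 1.47 ± 0.21 with siRNA and the smallest retrovirus difference of the role, −0.70 ± 0.15.

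Of the chromosome structure genes, the condensin I subunits Ncapg and Ncapd2 gave −1.58 ± 0.14 and −1.99 ± 0.12 with retrovirus, and the core subunit Smc2 −1.55 ± 0.15. The other core subunit, Smc4, gave −0.16 ± 0.15 on the probe set used (adjusted p = 0.469, limma), with 1258, 1335, 823 and 830.1 in Th1 and 1142, 1274, 1168 and 1075 in Th2. Both other Smc4 probe sets were called lower with retrovirus, at −0.62 ± 0.11 (adjusted p = 0.00986) and −0.53 ± 0.15 (adjusted p = 0.0487, limma). Top2a, the topoisomerase that unlinks sister chromatids, had 1653 and 1748 in Th1 and 584 and 633 in Th2 siRNA arrays, and 535, 594, 242 and 295 in Th1 against 1479, 1160.1, 1209 and 1231 in Th2 retrovirus arrays. Mki67, the proliferation antigen Ki-67 that coats mitotic chromosomes, had 499 and 601 in Th1 and 256 and 233 in Th2 siRNA arrays. Its retrovirus signals were 209.5, 282, 346 and 436 in Th1, against 1323, 1381, 1547 and 1603 in Th2. Both of its differences passed, 1.12 ± 0.22 and −2.19 ± 0.15.

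Genes outside the list shared the pattern in part. For comparison, 3.52% of all probe sets were called higher and 3.49% lower with siRNA, and 7.01% higher and 10.3% lower with retrovirus. Of 70 other mitosis and G2/M genes tested, 26 were called higher in Th1 with siRNA and 45 lower with retrovirus, with 0 called the other way in either set. Tacc3, a spindle protein, gave −2.15 ± 0.13 with retrovirus (adjusted p = 0.000135, limma), and Fbxo5, an APC/C inhibitor, 1.59 ± 0.18 with siRNA (adjusted p = 0.00408). Of 32 DNA replication and S phase genes 7 were called higher with siRNA and 19 lower with retrovirus, with medians of 0.53 and −0.78. Tk1, thymidine kinase, led with siRNA at 1.92 ± 0.19, and Rrm2, a subunit of ribonucleotide reductase, gave −2.09 ± 0.14 with retrovirus. The 18 MuvB, FoxM1 and E2F regulators gave 1 higher with siRNA and 8 lower with retrovirus. These are 5.56% and 44.4% of them, against 7.01% and 17.3% of all probe sets called either way. Of 18 G1 genes and cell cycle brakes tested, 2 were higher and 1 lower with siRNA, and 4 were higher and 2 lower with retrovirus. Markers of other cell types gave 0 calls of 12 with siRNA (1 at an unadjusted p under 0.05, limma). With retrovirus 1 was called, the dendritic cell integrin Itgax, at −1.37 ± 0.16. Their summed signal was 496 to 584 in Th1 and 467 to 536 in Th2 siRNA arrays, and 279 to 358 in Th1 and 345 to 416 in Th2 retrovirus arrays. The part of other cells in the difference was not tested.

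Against the untreated array of the same cell type, the arrays that stood low were Th2 with siRNA and Th1 with retrovirus. In Th2 cells with Trpm4 siRNA 38 of 49 members were at least 2-fold lower than untreated (8.71% of all probe sets), and with Thy1 siRNA 40 were (9.46%). Th1 retrovirus arrays had 26 to 31 members at least 2-fold lower (16.2 to 20.1% of all). By contrast 3 members were 2-fold lower in each Th1 siRNA array (13.6 and 13.8%), and 4 to 6 in the Th2 retrovirus arrays (14.6 to 16.4%). The list medians were −1.45 and −1.58 in Th2 with siRNA and −1.11 to −1.40 in Th1 with retrovirus, against 0.17 and 0.18 in Th1 with siRNA and −0.27 to 0.00 in Th2 with retrovirus. There was 1 untreated array per cell type, shared by all these ratios, so they are given with no test. The untreated arrays were not 3′ biased, while the Th2 retrovirus arrays and the Th1 retrovirus arrays of 4 h were. Their ratios to untreated therefore also cross a difference in RNA quality, whose part was not tested.

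Single genes showed this split only in part. Cdc20, at 1173 in untreated Th2 cells, stood at −2.43 and −2.47 against it in the Th2 siRNA arrays with Trpm4 and Thy1 siRNA. In Th1 cells Cdc20 stood at −0.60 and −0.47 with siRNA and at −0.52 to −0.29 with retrovirus. Cenpe was higher than in untreated Th1 cells on all 6 treated Th1 arrays, by 2.36 and 2.69 with siRNA. Ccnb2, Plk1, Aurka, Ube2c, Nusap1, Prc1, Hmmr and Pttg1 were below the untreated level of their cell type on every treated array, Ccnb2 at −1.63 and −1.74 even in Th1 cells with siRNA, where the list median was above 0. Plk4 was above it on every treated array. S phase genes had other medians. Their median against untreated was 0.08 and 0.06 in Th2 siRNA arrays, where the members stood lowest, and 0.89 and 0.97 in Th1 siRNA arrays.

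**Figure D3:**
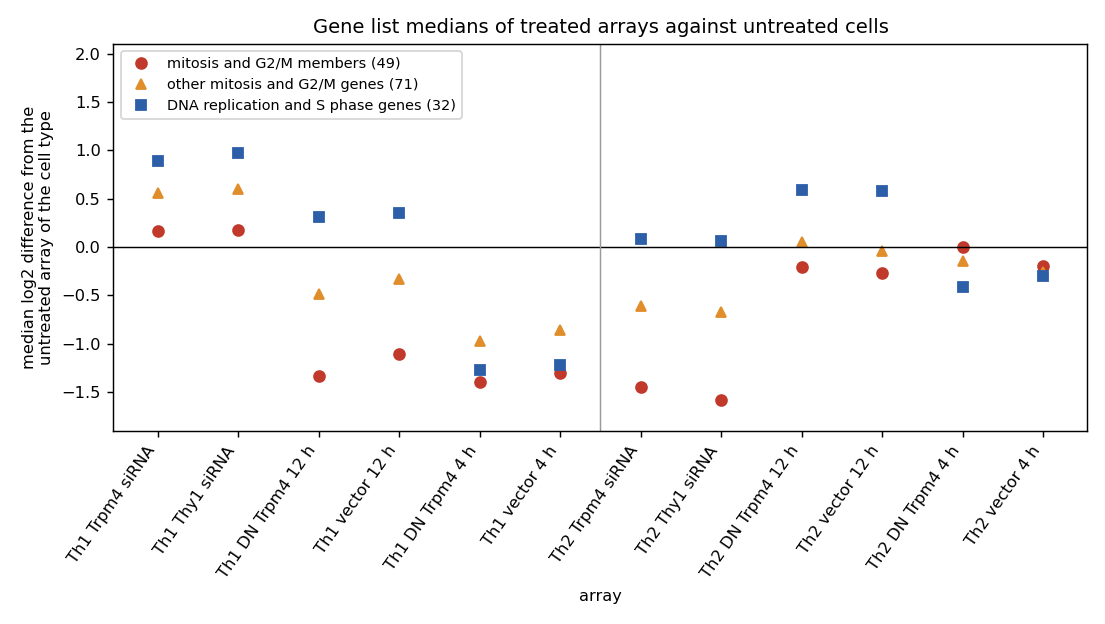
Median log2 difference from the untreated array of the same cell type on each treated array, for the 49 members (circles), other mitosis and G2/M genes (triangles) and DNA replication and S phase genes (squares). Members lie between −1.58 and −1.11 in Th2 with siRNA and Th1 with retrovirus and near 0 elsewhere, while S phase genes lie above 0 except on the 4 h arrays.

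Between 12 h and 4 h in the retrovirus arrays the median of the members was near 0, while single genes moved. Over both cell types 0 of 49 members were called in limma (2.01% of all probe sets were, 0.713% higher and 1.3% lower). The median of 12 h minus 4 h was 0.09. An unadjusted p under 0.05 was reached by 15 members and by 8301 of all 29467 probe sets. In Th1 cells 18 members were higher and 10 lower at 12 h, which is 57.1% of the list against 56.1% of all probe sets (27% higher and 29.1% lower), so the share is near the background. In Th2 cells 3 were higher (Cdk1, Plk4 and Smc2) and 3 lower (Nusap1, Ccnb2 and Cdca3), against 10.1% of all (4.51% higher and 5.57% lower). The difference of the change between Th1 and Th2 was called for 11 members that were higher and 4 that were lower, 30.6% of the list against 38.2% of all (18.1% higher and 20.1% lower). On the deposited signals the splits were 16 higher and 14 lower in Th1, 0 and 3 in Th2, and 10 and 6 for the difference. On median-centred signals Th2 gave 0 and 2. The deposited scaling moved the median of all probe sets in Th1 to −0.12, and relative to it the members' median was 0.07, against 0.15 after quantile normalisation. The Th1 arrays at 4 h were 3′ biased and those at 12 h were not, so in Th1 cells the time and the bias cannot be told apart. Both Th2 times were biased.

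Cdk1 had the largest change of the members. It had 582 and 705 at 12 h and 80.9 and 101 at 4 h in Th1 cells (DN Trpm4, then vector). In Th2 cells it had 983 and 732 at 12 h and 517 and 503 at 4 h. The 12 h arrays were above the 4 h arrays in both cell types, by 2.62 ± 0.15 in Th1 (adjusted p = 3.81e-06) and 0.72 ± 0.15 in Th2 (adjusted p = 0.0207), and the rise was larger in Th1 by 1.91 ± 0.21 (adjusted p = 0.000341, limma). Ube2c had 242 and 349 at 12 h and 45.1 and 61.8 at 4 h in Th1 cells, and in Th2 cells 144 and 178 at 12 h and 152 and 151 at 4 h. Its rise in Th1 was 2.15 ± 0.14, with 0.07 ± 0.14 in Th2. Among the others called higher in Th1 were Top2a (1.03 ± 0.15) and, of the Ndc80 complex, Nuf2 (0.98 ± 0.14), Spc25 (0.94 ± 0.13) and Spc24 (0.86 ± 0.15). All checkpoint genes but Bub3 were called higher in Th1, 4 of 5, though no other probe set of Bub1, Bub1b, Ttk or Spc25 shared that call.

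On the probe sets used, other members were lower at 12 h in Th1 cells. Cenpf had 18 and 37.7 at 12 h and 81.5 and 102 at 4 h, and Birc5 had 174 and 239 at 12 h and 484 and 589.8 at 4 h. Their differences were −1.33 ± 0.16 and −1.32 ± 0.17, with −0.23 ± 0.16 and −0.09 ± 0.17 in Th2. The passenger subunits Incenp and Cdca8 fell by 0.74 and 0.60 on the probe sets used, while Aurka rose by 0.83 ± 0.15. For Incenp, Cdca8, Cenpf and Kif11 another probe set was called the opposite way in Th1, for instance 1.14 for Incenp, 0.93 for Cdca8 and 0.51 for Cenpf, so the direction of these genes depends on the probe set. Of the 18 members called in Th1 that had other probe sets, all others shared the call for 3 and none did for 10. Pttg1 was not called in Th1 on the probe set used, while its others were called in opposite directions, at 2.12 ± 0.14 and −1.18 ± 0.14. In Th2 cells, where both times carry the bias, Plk4 rose by 0.57 ± 0.14 and Smc2 by 0.57 ± 0.14 on the probe sets used, while Nusap1 gave −0.70 ± 0.15, Cdca3 −0.62 ± 0.17 and Ccnb2 −0.54 ± 0.14. No other probe set of Plk4 or Cdca3 shared the call, while 3 of 4 others did for Smc2. The Th2 values of Ube2c and Birc5 had opposite signs in the DN and vector pairs. They were not alone, as 22 of the 43 members not called in Th2 turned direction when a pair was left out. In contrast to the members, all 32 S phase genes were called higher at 12 h in Th1 and 27 of them in Th2, with medians of 1.62 and 0.87, and 14 over both cell types. Cdc6, which loads the replicative helicase, gave 2.20 ± 0.12 over the 4 pairs (adjusted p = 0.0313, limma). Of 70 other mitosis genes, 38 were higher and 10 lower in Th1, and 10 and 3 in Th2.

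**Figure D4:**
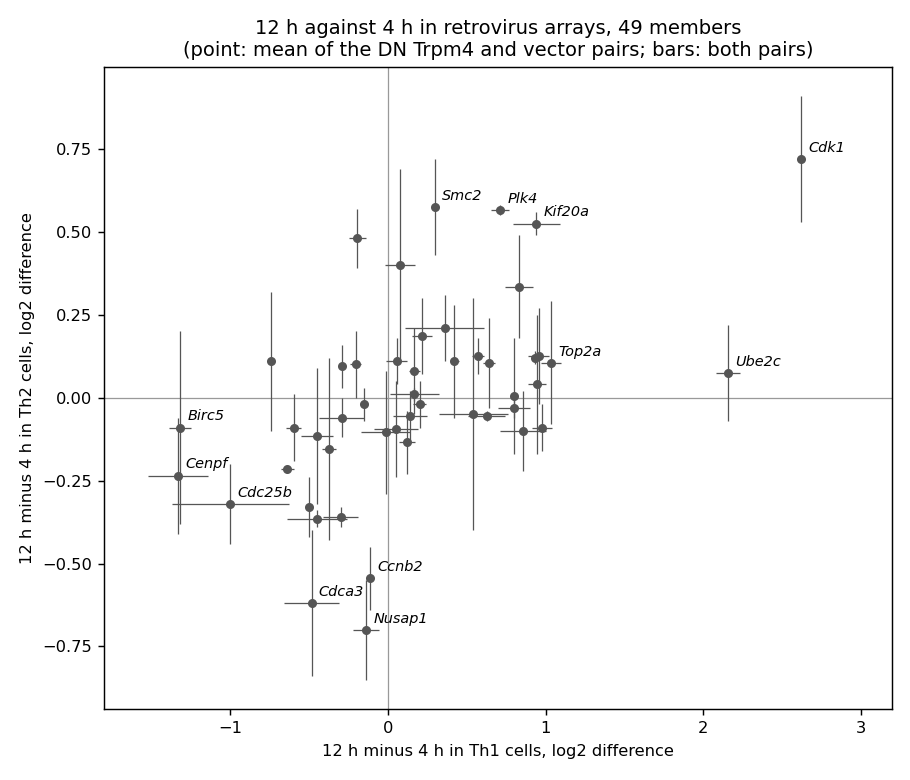
Difference of 12 h minus 4 h on the log2 scale in Th1 cells (horizontal) and Th2 cells (vertical) for the 49 members, as the mean of the DN Trpm4 and vector pairs with bars that span both pairs. Cdk1 lies far to the upper right at 2.62 and 0.72 and Ube2c to the right at 2.15, while most members lie within 1 of 0 in both cell types.

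Inhibition of Trpm4, the question of the series, moved no member past the threshold. With Trpm4 inhibited minus control, 0 of 49 members were called over the 6 pairs, in Th1 or Th2 cells, or for the difference between them, and neither were they for DN virus or siRNA alone (0% of all 29467 probe sets in each, limma). At an unadjusted p under 0.05 there were 0 members over the 6 pairs, 7 in Th1, 4 in Th2 and 13 for the difference, with 1 for the DN virus and 0 for siRNA. Of all 29467 probe sets 1733, 928, 1824 and 1032 were under it, with 997 for the DN virus and 3318 for siRNA. The values leaned apart by cell type. The median was −0.17 in Th1, with 46 of 49 below 0, and 0.10 in Th2, with 42 of 49 above 0, while the medians over all probe sets were 0. A total of 29 members were below 0 in all 3 Th1 pairs (12.4% of all probe sets) and 17 above 0 in all 3 Th2 pairs (12.5%). Aurka, Aurkb, Ttk, Cdc20, Nuf2, Cdca8 and Ect2 were both, 7 members against 1.27% of all. The median of the difference between cell types was −0.27, with 47 of 49 below 0. With the DN virus the deposited Trpm4 signal was above vector in Th1 cells (516 against 75.3 at 12 h, 119 against 70.5 at 4 h). In Th2 cells it was 129 against 135 at 12 h and 128 against 117 at 4 h. How far the construct was expressed in Th2 cells was not tested.

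Mki67 had the lowest unadjusted p in Th1 cells. It had 499, 209.5 and 346 with Trpm4 inhibited (siRNA, DN virus 12 h, DN virus 4 h), against 601, 282 and 436 in the control arrays. Each inhibited array lay below its own control, and the difference was −0.33 ± 0.10 (adjusted p = 1, limma, 3 pairs). In Th2 cells the lowest was Ttk, with 54.4, 97.8 and 78.3 when Trpm4 was inhibited and 39.4, 70.8 and 72.1 in controls, a difference of 0.28 ± 0.10 (adjusted p = 0.794). Cdca8 differed most between cell types, by −0.51 ± 0.16 (adjusted p = 1, limma), with 318, 128 and 195 against 352, 171 and 278 in Th1 and 152, 929.7 and 1063 against 151, 827 and 819.6 in Th2. These differences are a fraction of the 1.16 and −1.58 by which the list separated the cell types. A result that does not pass does not show that inhibition left these genes unchanged.

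**Figure D5:**
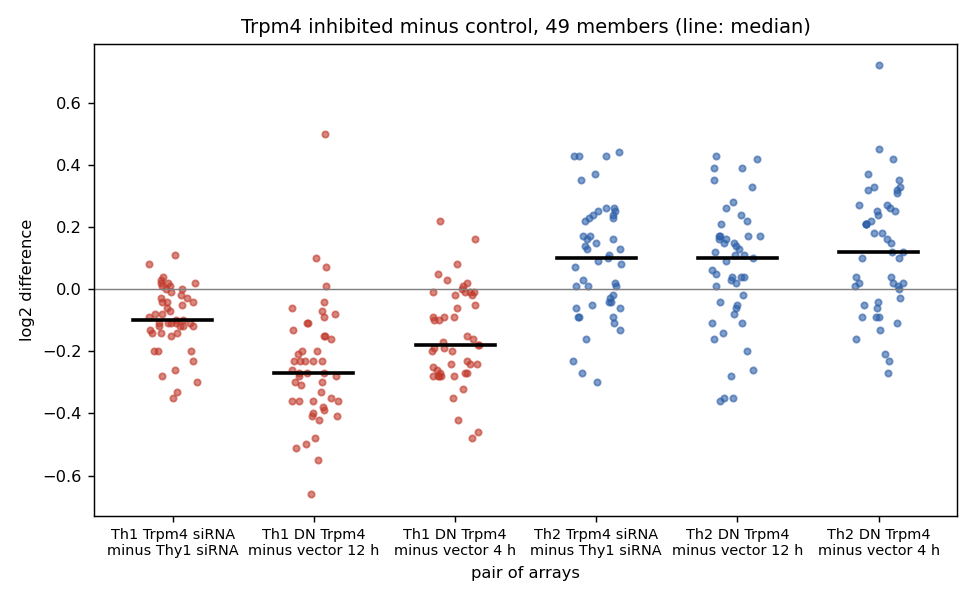
Difference of Trpm4 inhibited minus control on the log2 scale for the 49 members (points) in each of the 6 pairs, with a line at the median of the pair. Medians are −0.10, −0.27 and −0.18 in the Th1 pairs and 0.10, 0.10 and 0.12 in the Th2 pairs, all within the spread of the points.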

How the data were processed

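Total RNA was measured on 14 mouse Affymetrix arrays. The authors deposited 1 table of linear signal intensity for 45101 probe sets; their summarisation and scaling are not given in the labels. A single gene was annotated for 34958 of them, more than 1 gene for 932 and no gene for 9211. Intensities were quantile normalised and turned into log2(signal + 16). A probe set was kept if it was above the array's median on at least 2 arrays (29467 kept). limma 3.58.1 (R 4.3.3) was fitted on all kept probe sets with the pair of arrays as a block, two-sided, with Benjamini-Hochberg adjustment over all of them, and a call is an adjusted p under 0.05. The code was tested on simulated data. The pairs are arrays of equal treatment and time. No pairing by replicate number exists in the labels. Differences within a cell type or within a set of arrays came from joint fits with a shared estimate of the spread.

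The members, lists and tests were chosen with earlier results of these data known, and the split of Th1 minus Th2 by siRNA and retrovirus arrays was added after seeing the data. Named in full were, per comparison, the members with the lowest adjusted p or largest differences and, per role, that of highest signal. Alternatives were other scaling, pseudocounts, filters, variance models, probe set choices, no pair term and each pair left out. Promoters came from RefSeq (GRCm38.p6). Protein motifs were not analysed here.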

Additional observations from a re-analysis of the deposited data

Results flagged for a closer look

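The difference of Th1 minus Th2 between siRNA and retrovirus arrays was itself called for 42 of 49 members in limma, with Th1 above Th2 in one set and below it in the other. It was called for 0 members when either siRNA pair was left out.

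The change between 12 h and 4 h differed between Th1 and Th2 for 15 members in limma, 11 of them higher and 4 lower. This is 30.6% of the list against 38.2% of all probe sets, so the share does not exceed the background. The 3′ bias goes with time in Th1 cells alone, and its part in this count was not tested.

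With Trpm4 inhibited, 7 members (Aurka, Aurkb, Ttk, Cdc20, Nuf2, Cdca8 and Ect2) were below the control in every Th1 pair and above it in every Th2 pair. As a group pattern this was not tested; member by member the difference between cell types was called for 0 of 49. The list median was −0.10 with siRNA, −0.27 with the DN virus at 12 h and −0.18 with the DN virus at 4 h in Th1 cells, and 0.10, 0.10 and 0.12 in Th2 cells.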

How the results depend on the processing

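There is 1 array per condition, and the siRNA calls rest on 2 pairs. Over 49 members and 14 comparisons, 0 of 162 called values turned their direction. Of 524 values not called, 82 turned it under another setting and 136 when a pair was left out, as did list medians of 12 h minus 4 h near 0. For the 8 members of lowest p in each comparison, of their values under alternatives 1620 kept their direction and side of the threshold, 71 no longer passed and 10 newly passed; the causes were not tested.

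Leaving out each pair in turn gave 0 to 2 members called for Th1 minus Th2 (Cdc25b and Kif22 without the Thy1 siRNA pair), 0 to 26 with siRNA, 40 to 43 with retrovirus and 0 to 43 for the difference between the sets. For 12 h minus 4 h it gave 14 to 31 in Th1, 2 to 4 in Th2 (median −0.03 to 0.02) and 6 to 18 for their difference (median 0.05 to 0.25). The Trpm4 median in Th2 was 0.07 to 0.14. Leaving out a pair from Trpm4 siRNA minus Thy1 siRNA leaves 1 pair and no residual degrees of freedom, so it gave no value.

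For 12 h minus 4 h over both cell types, a pseudocount of 64 called 1 member (Plk4), and the Th2 pairs alone called 2 with a median of −0.02. On the deposited signals the medians were −0.04 in Th1, −0.10 in Th2 and 0.05 for their difference. In Th2, 3 were called on deposited signals, 2 on median-centred signals (median −0.08), 0 with a pseudocount of 1 and 2 with no filter. With the mean over all probe sets of a gene the medians were 0.02 in Th2 and 0.24 for the difference.

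The median of Th1 minus Th2 with siRNA was 1.32 median-centred, 1.37 and 0.86 with pseudocounts of 1 and 64, and 0.99 with the mean of probe sets. With retrovirus it was −1.79 and −1.23 with those pseudocounts and −1.27 with the mean of probe sets. For the difference between the sets it was 3.12, 2.13 and 2.38 under these. The Trpm4 median in Th2 was 0.08 on deposited signals, 0.07 with a pseudocount of 64, 0.08 with the stricter filter and 0.12 with the mean of probe sets. Members above 0 for Trpm4 siRNA minus Thy1 siRNA numbered 21, against 35 on deposited and 39 on median-centred signals.

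Without the pair as a replicate block 30 members were called with siRNA, 43 with retrovirus, 42 for the difference between the sets, 28 and 6 for 12 h minus 4 h in Th1 and Th2, 16 for their difference, and 0 in the other comparisons, so the block changed no count by over 1.5 times.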
